A study of Mus musculus with 472 samples.

Results

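The cells described are mouse retinal ganglion cells in which Opn4, the melanopsin gene, or Eomes, the T-box transcription factor also called Tbr2, reached 10 counts in every 1000000 gene counts (CPM). They were chosen by these 2 readouts in the deposited expression table, and 75 cells met the rule, which is 15.9% of all cells of the series (exact 95% interval 12.7% to 19.5%). Every cell came from the retina of a C57BL/6J mouse aged 7 to 9 weeks, and the labels give no treatment or genotype that differs between cells. Each was patched in a flat-mounted retina and recorded under blue and green light, and its contents were drawn into the pipette and amplified by Smart-seq2, which copies whole transcripts and adds no molecular identifiers. The recordings were not analysed here. The groups used are the 75 Opn4/Eomes cells, all other cells, and the Opn4/Eomes cells parted by Spp1 (osteopontin) at the same 10 CPM into 45 Spp1-positive and 30 Spp1-negative cells. A sample here is 1 cell and no label says which mouse it came from, so the series counts as 1 sample and all differences are given as descriptions without a test. Intervals on shares cover counting error only, not differences between mice.

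Melanopsin is a photopigment that lets a small class of ganglion cells, the intrinsically photosensitive ones, respond to light without rods and cones. Light-activated melanopsin works through a G protein of the Gq family and phospholipase C beta, and in the most melanopsin-rich type this opens TRPC6 and TRPC7 channels. These cells set the circadian clock and the pupil reflex, many release the peptide PACAP (encoded by Adcyap1) beside glutamate, and Eomes is needed for their development. Melanopsin levels differ widely between types, and the one known as M4 has little melanopsin and overlaps with the large ON sustained alpha ganglion cells, which carry Spp1, Kcng4 and neurofilament heavy chain (Nefh). CPM is not corrected for gene length, so levels below are compared between cells, never between genes.

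The Opn4/Eomes cells were well covered, with a median of 5605543 gene counts and 5991 positive genes (10 CPM or more) against 5089785 and 5468 in the other cells. The gap was widest in run D, where the medians were 5558.5 and 2389 positive genes. Spike-in RNA took a median of 0.439% of their counts against 0.836%. All 75 had 6 or more of 12 genes shared by ganglion cells, against 96.7% of the others. Tags in the library names were taken as 5 sequencing runs, A to E, with 32, 22, 8, 10 and 3 of the Opn4/Eomes cells. A pair of cells stands apart: cell 22 (run B) has 58907 gene counts and 27.1% spike-ins, so that its Opn4 and Eomes calls rest on 2 counts and 1 count, and cell 420 (run D) has 1364 positive genes and 20% spike-ins. Neither is among the 53 Opn4/Eomes cells with at least 5000 positive genes, whose values are given where they bear on a result.

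**Figure D1:**
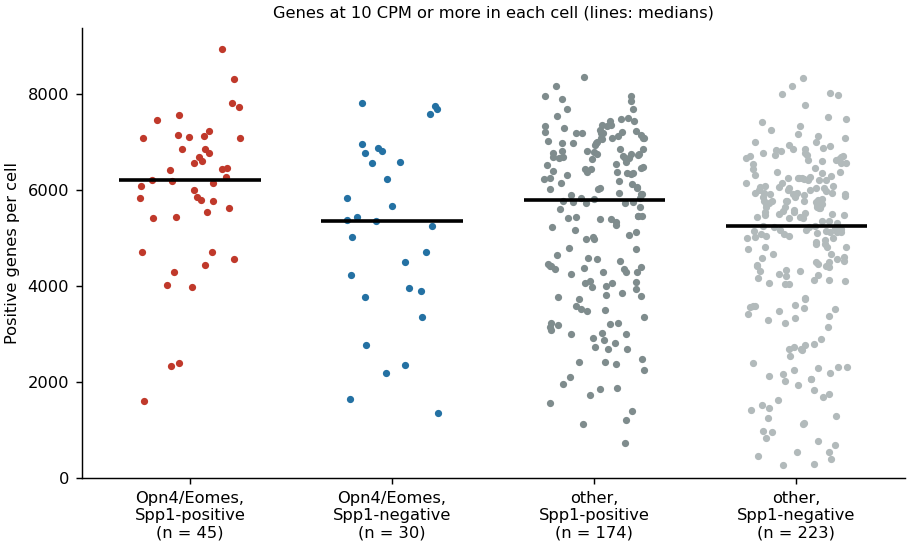
Number of genes at 10 CPM or more in each cell (vertical axis) for Opn4/Eomes cells and other cells, each parted by Spp1; points are single cells and lines are medians. The Spp1-positive Opn4/Eomes cells have the highest median (6218), the Spp1-negative ones sit at 5361, and they spread from 1605 to 8937 and from 1364 to 7821.

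Opn4 and Eomes were each near the bottom of a wide range in most of the cells that carried them. Opn4 (mm10, chromosome 14, 34590618 to 34600142, minus strand) was at 10 to 100 CPM in 31 cells, at 100 to 1000 CPM in 19 and above that in 2, with a median of 66.8 CPM among the 52 positive cells and a highest value of 5645. Eomes (chromosome 9, 118478212 to 118486132, plus strand) was at 10 to 100 CPM in 32 cells and at 100 CPM or more in 9, with a median of 31.9 CPM among 41 positive cells and a highest value of 532.5. At the threshold there was no wide gap. The cells just outside the rule had 8.98 CPM of Opn4 and 8.71 CPM of Eomes, the latter in a cell that Opn4 brought in, and those just inside had 11.2 and 10.4 CPM. Calling at 1 CPM would raise the share of cells from 15.9% to 23.1%, and calling at 100 CPM would lower it to 5.30%.

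The overlap of the pair was partial: 34 cells had Opn4 alone, 18 had both and 23 had Eomes alone. Spp1 was more frequent in the cells with Opn4 than in those with Eomes alone, and 43.8% of the other cells also had it. Of the cells with Opn4 alone 26 of 34 were Spp1-positive (76.5%, 58.8% to 89.3%), of those with both 12 of 18 (66.7%, 41% to 86.7%), and of those with Eomes alone 7 of 23 (30.4%, 13.2% to 52.9%). Spp1 itself ran from 16.98 CPM at the edge of the call, which is 1 count in cell 22, to 5224 CPM, with 8.72 CPM in the highest cell below it. The Spp1 share moved with the run, being 26 of 32 cells in A, 9 of 22 in B and 2 of 8 in C. It was 8 of 10 in D and 0 of 3 in E, and without run A it is 44.2% instead of 60%. Run A held 19 of the 34 cells with Opn4 alone and 7 of the 23 with Eomes alone. The part of the run in the Spp1 shares of these groups was not tested.

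**Figure D2:**
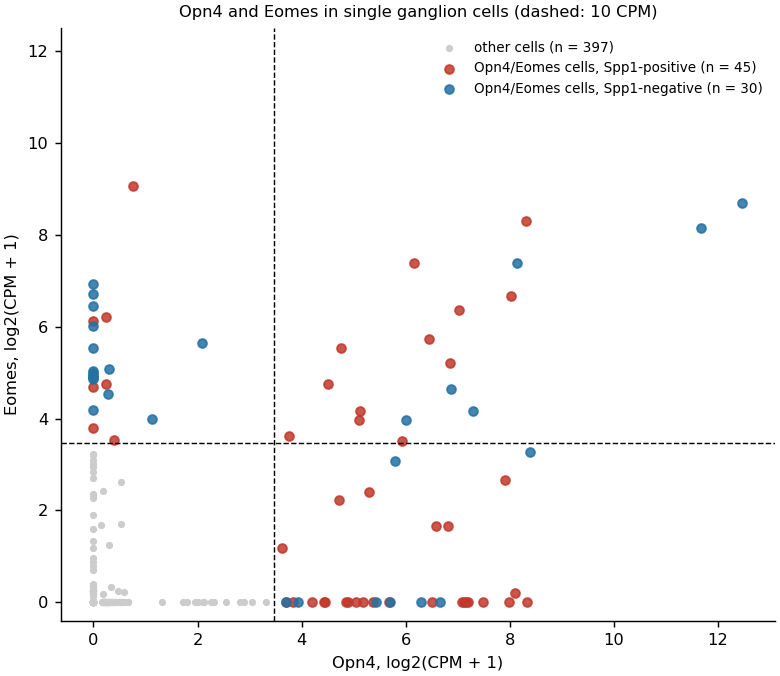
Opn4 (horizontal) against Eomes (vertical) in every cell, both as log2(CPM + 1); dashed lines mark 10 CPM, red and blue points are Opn4/Eomes cells with and without Spp1, grey points are all others. The 18 cells positive for both lie in the upper right, and the 2 cells above 1000 CPM of Opn4, both blue, stand far to the right of the rest, the next of which has 332.9 CPM.

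The name melanopsin class is borne out by few of the further markers. Adcyap1, which encodes PACAP, was positive in 20 of 75 cells (26.7%, 17.1% to 38.1%) against 29.2% of the others (24.8% to 34%), so it was no more frequent. By run it was found in 10 of 32 cells in A, 5 of 22 in B, 2 of 8 in C, 2 of 10 in D and 1 of 3 in E. Tbx20, a T-box factor of some melanopsin types, was positive in 7 cells (9.33%, 3.84% to 18.3%) against 6 others (1.51%, 0.557% to 3.26%). Of those 7 cells 5 came from run B, and without that run the share is 3.77%. Nmb (neuromedin B), a gene reported in melanopsin cells, was positive in none of the 75, which allows a share of up to 4%. The cells are therefore called by the rule, as Opn4/Eomes cells.

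Genes of melanopsin signalling did not stand out as a group. Of 22 listed genes 16 were common enough to compare (positive in 10% or more of either group), and none differed by 1 or more in mean log2(CPM + 1), the size of difference called here. Their median difference was 0.01, against 0.25 over all genes compared. The G protein gene Gna11 was positive in 54.7% of cells against 47.6%, the phospholipase gene Plcb4 in 78.7% against 74.8%, and Grk2, the kinase that switches off active receptors, in 45.3% against 30.7%. Some rarer members were more frequent: Trpc7 was positive in 6 cells (8%, 2.99% to 16.6%) against 9 others (2.27%), and Gna14, another Gq-family gene, in 4 cells (5.33%) against 2 others (0.504%). Trpc6 was positive in 5 cells (6.67%) and in 6.30% of the others.

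In 3 cells several rare genes of this kind were found together. Cell 24 had 5645 CPM of Opn4, 413.6 of Eomes, 1176 of Trpc7, 353.8 of Rasgrp1 (a Ras exchange factor) and 382.1 of Nppb (natriuretic peptide B), with Gna14 and Trpc6 at 0. Cell 7 had 3250 CPM of Opn4, 283.7 of Eomes, 189.7 of Gna14, 145.7 of Trpc6, 471.8 of Trpc7, 961.4 of Rasgrp1, 95.4 of Nppb, 74.1 of Tbx20 and 530.3 of Adcyap1. Cell 13 had 278.7 CPM of Opn4, 166.1 of Eomes, 118.9 of Gna14, 51.9 of Trpc6, 38.7 of Trpc7, 13.1 of Rasgrp1, 64.1 of Nppb, 10.3 of Tbx20 and 70.4 of Adcyap1. All of them came from run B, had both rule genes, had Spp1 under 4 CPM and Pou4f2 at 0, and also carried Baiap3, an exocytosis gene reported in melanopsin cells, at 80.5, 483.6 and 101.5 CPM. They were the only Opn4/Eomes cells with 3 or more of Gna14, Trpc6, Trpc7, Rasgrp1 and Nppb, and 1 of the other cells (0.252%) had as many. This set of 5 was put together once the values were known. Cells 24 and 7 had 0 of 8 rod markers and cell 13 had 6. Cell 24 is a library with few genes, 1651 of them positive.

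**Figure D3:**
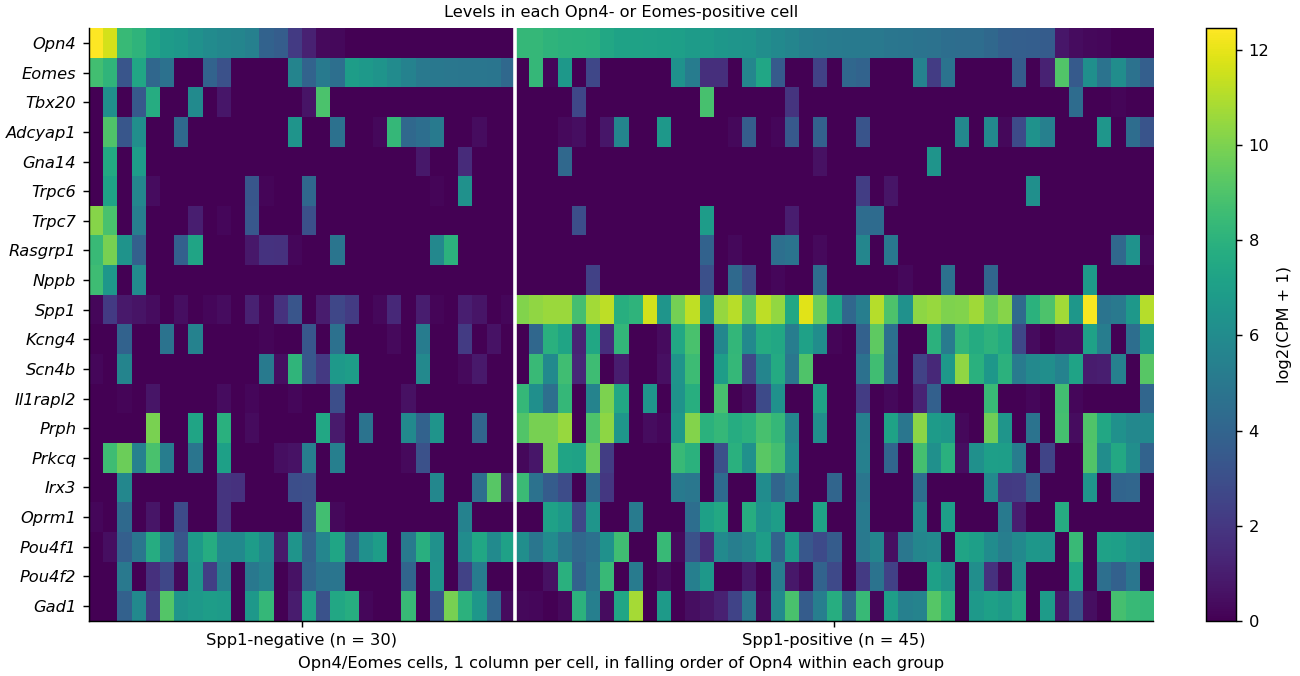
Levels as log2(CPM + 1) of 20 genes (rows) in each of the 75 Opn4/Eomes cells (columns), parted into 30 Spp1-negative and 45 Spp1-positive cells and ordered by falling Opn4. The 2 columns at the far left hold the highest Opn4 with Trpc7, Rasgrp1 and Nppb, and Kcng4, Prph and Il1rapl2 are mostly in the Spp1-positive columns.

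Away from the rule genes, the Opn4/Eomes cells were marked by Prph and Prkcq. Prph encodes peripherin, an intermediate filament of neurons with long axons, and lies on chromosome 15 (99055174 to 99058978, plus strand). It was positive in 41 of 75 cells (54.7%, 42.7% to 66.2%) against 58 other cells (14.6%, 11.3% to 18.5%), with a mean log2(CPM + 1) of 4.12 ± 3.95 (SD over cells) against 0.99 ± 2.17. In every run the share was above that of the other cells, at 62.5% against 13.9% in A, 40.9% against 15.8% in B, 37.5% against 7 of 54 cells in C, 60% against 8.16% in D, where the other cells had far fewer positive genes, and 3 of 3 against 7 of 16 cells in E. Prkcq, the gene of protein kinase C theta (chromosome 2, 11172108 to 11301222), was positive in 34 cells (45.3%, 33.8% to 57.3%) against 30 others (7.56%, 5.16% to 10.6%), with means of 3.38 ± 3.60 and 0.60 ± 1.65. Its share was also above that of the other cells in each run, 43.8% against 8.42% in A and 40.9% against 7.89% in B. These shares pool cells with and without Spp1. In the Spp1-negative Opn4/Eomes cells Prph was positive in 0 of 6 in A, 4 of 13 in B, 2 of 6 in C, 0 of 2 in D and 3 of 3 in E. Prkcq was positive there in 2 of 6, 4 of 13, 1 of 6, 0 of 2 and 2 of 3. Both genes were positive together in 25 of all the Opn4/Eomes cells and in 13 others. Thinning every cell to 1000000 counts left the shares at 55.4% and 14.6% for Prph and at 45.9% and 8.44% for Prkcq, and in cells with at least 5000 positive genes they were 58.5% and 18.3% for Prph and 49.1% and 10.8% for Prkcq.

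Of 11749 genes compared, 2.11% were higher by 1 or more in mean log2(CPM + 1) and 0.034%, or 4 genes, were lower. The difference had a median of 0.25 over these genes, and the Opn4/Eomes libraries also had more positive genes. With that median subtracted 73 genes (0.621%) are higher and 22 lower, so the share of higher ones among the called is 76.8% instead of 98.4%. The counts depend on the runs: 6.27% are higher without run A, 5.67% without run B and 1.57% without run D, with 8, 7 and 9 genes lower. With a pseudocount of 10 in place of 1, 10 genes are higher and 1 lower.

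After Prph and Prkcq, the genes with the largest excess that held in all 4 runs with enough cells were Ctxn3 (difference 2.64), the LIM protein gene Crip2 (2.0), the nicotinic receptor subunit gene Chrna4 (1.97), Kitl (1.89), Ndnf (1.84), the orphan receptor gene Gpr37 (1.83) and the kinase gene Mast4 (1.81). Kitl, which encodes the ligand of the KIT receptor, was positive in 66.7% of the Opn4/Eomes cells against 34.5%. Ndnf, a secreted neurotrophic factor, was positive in 45.3% against 17.6%, and Chrna4 in 64% against 36%. Next came the guidance gene Sema5a (1.78), Coch (1.78), Btbd11 (1.77), Mgat4c (1.76) and the homeobox gene Irx6 (1.74), the last positive in 56% against 28%. The lower genes were fewer and differed less. Gpam, an enzyme of glycerolipid synthesis, was positive in 22.7% against 41.8% (difference -1.15), Mmp9, a matrix protease, in 29.3% against 41.6% (-1.13), and the secreted-protein gene Nell2, just short of the call, in 72% against 81.4% (-0.99).

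The counts for the listed genes stand beside 2.11% of all genes higher and 0.034% lower, and a count of 1 in a long list is near that share. Of the 14 listed genes reported in melanopsin cells 7 could be compared, and 2, Il1rapl2 and Igf1, were higher by 1 or more, with a list median of 0.49. Il1rapl2 (an interleukin-1 receptor family member, chromosome X, 137570608 to 138846946) was positive in 22.7% (13.8% to 33.8%) against 5.04%, but 15 of its 17 positive cells were in run A and 2 in D, and in runs B and C it was positive in 0 of 22 and 0 of 8 Opn4/Eomes cells against 3 of 76 and 4 of 54 others. Igf1, an insulin-like growth factor, was positive in 61.3% against 41.8%. The cadherin gene Cdh3 was positive in 9 cells (12%, 5.64% to 21.6%) against 2.27%, Nppb in 8 (10.7%, 4.72% to 19.9%) against 1.76%, and Rasgrp1 in 16 (21.3%) against 12.3%. Irx1 was positive in 3 Opn4/Eomes cells and in none of the others, which allows up to 0.756% of them. Oprm1, the mu-opioid receptor gene, was positive in 25.3% (16% to 36.7%) against 6.30% and was the 1 called gene of 9 modulatory receptor genes compared. Kcnb2, a Kv2 potassium channel gene, was the 1 called of 23 sodium and Kv channel genes, at 57.3% against 36.8%, and Kcng4, whose silent subunit joins Kv2 channels, was at 44% against 23.2%. Of 8 calcium-binding genes Calb1 (69.3% against 50.6%), which is also listed as a horizontal cell marker, and Necab2 (54.7% against 29.2%) were called. The direction held in all 4 runs with enough cells for Oprm1, Kcnb2, Kcng4 and Necab2, and in 3 of 4 for Calb1 and Igf1.

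Of 18 class transcription factors compared 1 was higher by 1 or more and 0 lower, beside 2.11% and 0.034% of all genes. Irx3 was positive in 29.3% (19.4% to 41%) against 12.6%, at 40.6% against 13.9% in run A but 13.6% against 14.5% in B, and its difference of 1.01 becomes 0.85 in cells with at least 5000 positive genes. Foxp1 was at 29.3% against 17.4%, and Bnc2 at 13.3% against 24.9%. Among the Pou4f factors of ganglion cells, Pou4f1 was positive in 76% against 82.6% and Pou4f2 in 38.7% against 26.2%, with differences of -0.76 and 0.74 in mean log2(CPM + 1). The 18 cells with both Opn4 and Eomes included none of the 10 Bnc2-positive cells, which allows up to 3 of 18.

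**Figure D4:**
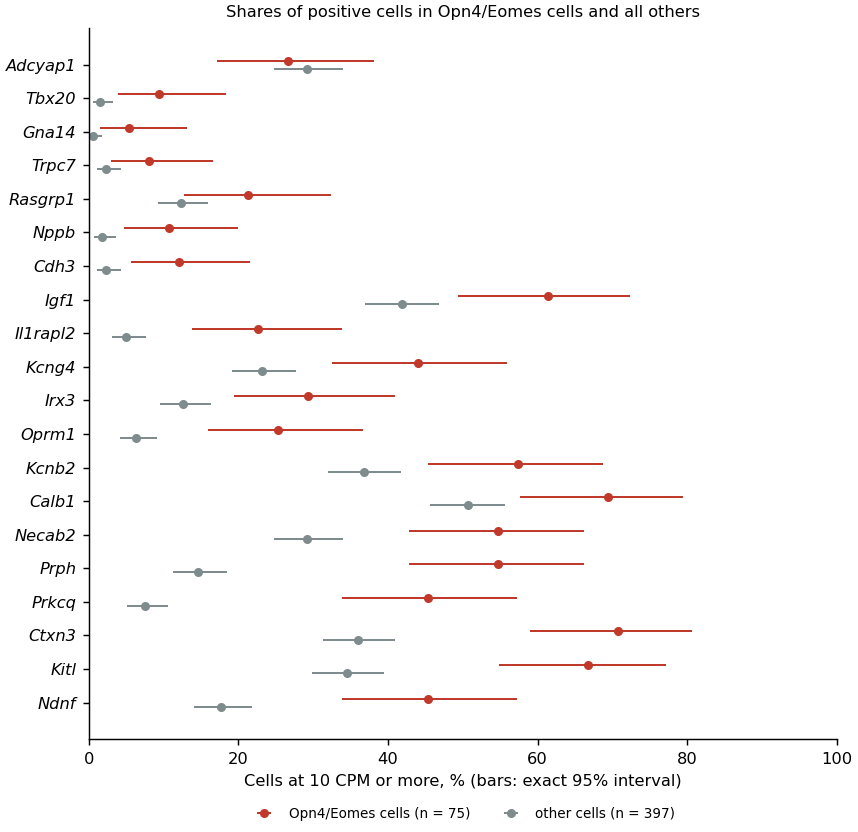
Share of cells at 10 CPM or more, in percent, for 20 genes in the 75 Opn4/Eomes cells (red) and all other cells (grey); bars are exact 95% intervals. Adcyap1 does not part the groups (26.7% and 29.2%), whereas Prph (54.7% and 14.6%) and Prkcq (45.3% and 7.56%) lie far apart.

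Rod, cone, amacrine, bipolar, horizontal cell and Müller glia markers were also more frequent in the Opn4/Eomes cells. Of 8 rod markers Sag and Pde6b were higher by 1 or more, Pde6b being positive in 61.3% against 41.1%, and 69.3% of the cells had 3 or more rod markers against 59.7%. Summed rod marker levels had a median of 732.4 CPM (0.654 to 54768) against 332.5. Of 8 amacrine markers Gad1, the enzyme that makes GABA, was positive in 57.3% against 39.3% and Tfap2b in 52% against 29.5%, and 54.7% of cells had 3 or more against 41.8%. By run Gad1 was at 40.6% against 36.1% in A and 63.6% against 53.9% in B. It was positive in 6 of 8 against 20 of 54 cells in C and 2 of 3 against 13 of 16 in E. In D, where the other cells had far fewer positive genes, it was 8 of 10 against 9 of 49. Tfap2b was at 34.4% against 25.2% in A, 7 of 8 against 17 of 54 in C and 6 of 10 against 6 of 49 in D. The summed amacrine level went the other way, with a median of 469.5 CPM against 559.1. Of the 43 Gad1-positive Opn4/Eomes cells 38 also had Slc17a6, the glutamate transporter of ganglion cells, and 17 had Slc32a1, the GABA vesicle transporter. For 3 or more bipolar markers the shares were 38.7% and 26.4%, for Müller glia markers 85.3% and 78.3%, and for vessel markers 0 of 75 (up to 4%). For horizontal cell markers, among them Calb1, they were 33.3% and 25.7%, and for cone markers 17.3% and 9.07%. Starburst amacrine and astrocyte markers reached 3 in 1.33% of cells against 1.51% each, and microglia markers in 1.33% against 2.02%. Among Spp1-positive cells alone, 3 or more rod markers were found in 64.4% of Opn4/Eomes cells against 64.9% of the others. For amacrine markers these shares were 51.1% and 50.6%, for bipolar markers 35.6% and 31.6%, and for Müller glia markers 91.1% and 89.7%. By level, 0 rod or bipolar markers were called among Spp1-positive cells. Apoe of the Müller glia list (1.67) and S100b of the astrocyte list (1.72) were higher, in all 3 runs with enough cells. Gad1 was higher by 1.26, in 2 of the 3. Against all other cells Apoe (1.39) and Dkk3 (1.18) were the Müller glia markers called, both in 4 of 4 runs. The part of this RNA in the counts of higher genes was not tested. With cells that had 3 or more amacrine markers left out, Prph was positive in 58.8% of 34 Opn4/Eomes cells against 8.23% and Prkcq in 32.4% against 3.03%.

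Within the Opn4/Eomes cells, those with Spp1 were more often positive for alpha ganglion cell genes, and some of these genes were also in most cells without it. Kcng4 was positive in 28 of 45 Spp1-positive cells (62.2%, 46.5% to 76.2%) against 5 of 30 Spp1-negative ones (16.7%, 5.64% to 34.7%). The sodium channel subunit gene Scn4b was at 60% against 20%, Nefh at 95.6% against 60%, and the calcium buffer gene Pvalb at 86.7% against 53.3%. Of 7 alpha markers other than Spp1, 5 were higher by 1 or more, and their median difference was 2.62 against 0.37 over all genes, of which 17.6% were higher by 1 or more. That list median is the pooled difference of Il1rapl2, which kept its direction in 1 of the 2 runs with enough cells. In the 2 runs with at least 5 cells on each side, Kcng4 was positive in 19 of 26 against 2 of 6 cells in A and in 3 of 9 against 2 of 13 in B.

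The Spp1 split went with a large overall shift. Of 12474 genes compared, 2198 were higher by 1 or more in the Spp1-positive cells, or 17.6%, and 1.41% were lower. The Spp1-positive cells also had more positive genes, 6218 against 5361 at the median, and less ribosomal RNA, 11.4% against 23.2% of counts; the part of this difference in the gene counts was not tested. With the median difference of 0.37 subtracted, 971 were higher and 606 lower, so the share of higher ones is 61.6% instead of 92.6%. In cells with at least 5000 positive genes 1439 were higher and 712 lower. The share of lower genes was 3.31% without run A and 4.28% without run B, and without cells that had 3 or more bipolar or amacrine markers the share of higher genes was 28.9% and 34.8%. With a pseudocount of 10, 2.81% were higher and 17 genes lower.

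The largest excesses in both of those runs were in Col16a1, a collagen gene (57.8% of Spp1-positive against 6.67% of Spp1-negative cells), Ctxn3 (86.7% against 46.7%), Prph (71.1% against 30%), the receptor kinase gene Flt3 (73.3% against 23.3%), Kcng4 and Zmat4 (80% against 40%); the 3 predicted genes with clone names among the 20 largest are not listed. Further down stood the transporter gene Slc29a4, the potassium leak channel gene Kcnk1 (75.6% against 30%) and Kcnc1, which encodes a fast Kv3 channel (97.8% against 70%). Il1rapl2 was positive in 17 of 45 Spp1-positive cells and in 0 of 30 Spp1-negative ones, which allows up to 10%, and all of the difference lay in run A (15 of 26 against 0 of 6 cells) and D (2 of 8 against 0 of 2). Of 23 sodium and Kv channel genes 8 were higher by 1 or more, beside 17.6% of all genes, among them Scn1a, Kcna1 and Kcnb2, and 1, the beta subunit gene Scn3b, was lower (37.8% against 66.7%). All of these but Scn1a, which did so in 1, kept their direction in both runs. Brain-derived neurotrophic factor, Bdnf, was positive in 64.4% against 36.7%.

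Fewer genes were lower with Spp1, and the largest differences were in Col6a2, Synpr, Rcn1 and Gap43. Gap43, a growth cone protein, was positive in 33 of 45 Spp1-positive cells (73.3%, 58.1% to 85.4%) against 29 of 30 Spp1-negative ones (96.7%, 82.8% to 99.9%), with means of 5.09 ± 2.80 and 7.32 ± 1.89 in log2(CPM + 1). Col6a2, a collagen gene, was at 22.2% against 60%, the synaptic vesicle gene Synpr at 48.9% against 80% and the syntaxin gene Stx1a at 11.1% against 40%. Of 8 rod markers Pde6a and Nr2e3 were lower by 1 or more, with a list median of -0.82, Pde6a in 1 of the 2 runs and Nr2e3 in both. Beside these, 3 or more rod markers were found in 64.4% of Spp1-positive and 76.7% of Spp1-negative cells, 3 or more amacrine markers in 51.1% and 60%, and 3 or more Müller glia markers in 91.1% and 76.7%; the part of such RNA in the split was not tested. Among peptide genes Tac1 (substance P) was at 11.1% against 30%, lower in 1 of the 2 runs, and Cartpt at 64.4% against 73.3%.

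**Figure D5:**
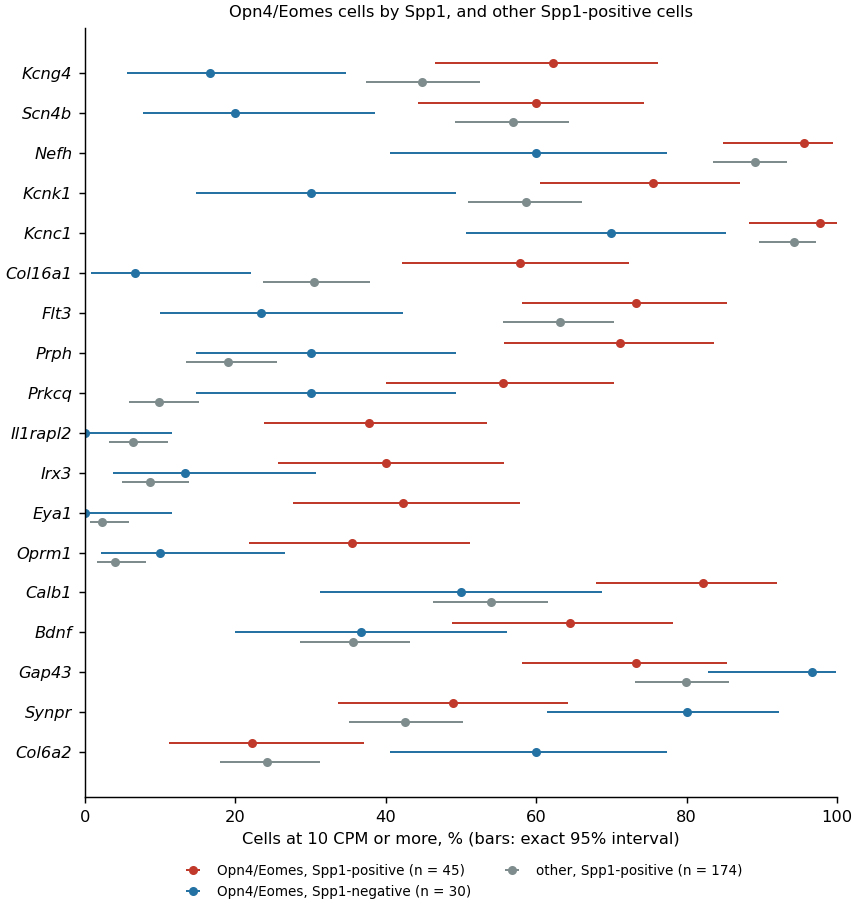
Share of cells at 10 CPM or more, in percent, for 18 genes in Spp1-positive (red, n = 45) and Spp1-negative (blue, n = 30) Opn4/Eomes cells and in other Spp1-positive cells (grey); bars are exact 95% intervals. Kcng4, Scn4b and Nefh are lowest in the blue group, and Prph (71.1%, 30% and 19%), Prkcq, Irx3 and Oprm1 are highest in the red one.

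Against the Spp1-positive cells that lacked Opn4 and Eomes, the 45 Spp1-positive Opn4/Eomes cells were called higher in 2 of 7 alpha genes, Kcng4 and Il1rapl2. Il1rapl2 is also on the list of genes reported in melanopsin cells, so it counts in both lists. Scn4b was at 60% against 56.9% and Nefh at 95.6% against 89.1%, and Spp1 itself had means of 9.08 ± 2.23 and 8.94 ± 2.28. Kcng4 was at 62.2% against 44.8%, a difference of 1.13. Of 12008 genes compared 685 were higher, or 5.7%, and 25 lower, or 0.208%, around a median difference of 0.29. With that median subtracted 88 were lower, and the share of higher ones among the called is 70.6% instead of 96.5%.

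The leading genes of this comparison were again Prph and Prkcq. Prph was positive in 32 of 45 (71.1%, 55.7% to 83.6%) against 19% (13.4% to 25.6%) and Prkcq in 25 of 45 (55.6%, 40% to 70.4%) against 9.77%. By run Prph was at 76.9% against 15.6% in A, 5 of 9 against 9 of 26 in B and 6 of 8 against 0 of 20 in D. Eya1, a phosphatase and transcriptional coactivator, was positive in 19 of 45 (42.2%, 27.7% to 57.8%) against 2.30%, and in 0 of the 30 Spp1-negative Opn4/Eomes cells. Tmem255b was at 37.8% against 6.90%, Oprm1 at 35.6% against 4.02%, Calb1 at 82.2% against 54% (in 2 of the 3 runs with enough cells), Bdnf at 64.4% against 35.6% and Irx3 at 40% (25.7% to 55.7%) against 8.62%. Il1rapl2 was at 37.8% (23.8% to 53.5%) against 6.32%, which holds in run A (57.7% against 5.5%) and D (2 of 8 against 1 of 20) but not in B (0 of 9 against 2 of 26). Lower were the laminin gene Lamb1 (42.2% against 62.1%), Gpam (28.9% against 52.9%), Nell2 (68.9% against 85.6%), the ETS factor gene Etv1 and Drd1, a dopamine receptor gene (31.1% against 51.7%), the last in 2 of those 3 runs.

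Of 45 Spp1-positive Opn4/Eomes cells 27 (60%, 44.3% to 74.3%) had 3 or more of Kcng4, Il1rapl2, Prph, Prkcq and Irx3, against 9 other Spp1-positive cells (5.17%, 2.39% to 9.59%) and 2 of 30 Spp1-negative Opn4/Eomes cells. This set was also put together once the values were known, from genes that are frequent in the first group, so the shares describe that choice. Among the Spp1-positive Opn4/Eomes cells 16 of the 17 with Il1rapl2 had Prph, and 17 of the 18 with Irx3 had it.

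The cells with both rule genes were the richest in Prkcq. It was positive in 14 of the 18 cells with both Opn4 and Eomes, in 13 of 34 with Opn4 alone and in 7 of 23 with Eomes alone. Prph was spread more evenly, at 11 of 18, 18 of 34 and 12 of 23. Oprm1 was positive in 8 of 18, 8 of 34 and 3 of 23. Ctxn3 was positive in 16 of 18, 26 of 34 and 11 of 23, and the follistatin-like gene Fstl1 in 16, 28 and 9 of the same groups. The cells with both had less of the NMDA receptor subunit gene Grin2a (3 of 18, against 21 of 34 and 15 of 23). They also had less of Cartpt (7 of 18, against 24 of 34 and 20 of 23). Rod markers parted these groups too. Against Eomes alone, 6 of 8 were higher by 1 or more with Opn4 alone, beside 11.5% of all genes. With both, 7 of 8 were, beside 8.13%. Müller glia markers were higher for 4 of 8 with Opn4 alone. With both, 2 of 7 were higher and 1 lower. The part of such RNA in the class differences was not tested. For the cells with both, lower genes outnumbered higher ones against Opn4 alone and were about as many against Eomes alone. Against the cells with Opn4 alone 1590 of 12686 genes were lower by 1 or more and 3.12% higher, around a median difference of -0.22. With that median subtracted 925 were lower and 775 higher. Against those with Eomes alone 1110 of 12471 were lower (8.9%) and 1014 higher (8.13%). Ribosomal RNA took a median of 25.9% of counts with both, 11.96% with Opn4 alone and 15.8% with Eomes alone. Cell 22, with 58907 gene counts, is among the 18 cells with both. The part of these differences in the counts of genes was not tested. Positive genes per cell had medians of 5902.5 with both, 6117.5 with Opn4 alone and 5539 with Eomes alone, and the groups are small.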

How the data were processed

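Values are the authors' deposited estimated counts for 55450 genes and 92 ERCC spike-ins in every cell; 1.36% were not whole, and all were rounded. Reads were 150 bp long, per the labels, and the submitters' processing notes name STAR 2.7.0 and the mm10 build; the sources used here do not give the quantifier or annotation. CPM is per 1000000 gene counts without spike-ins. Positions (1-based) are from GENCODE mouse release 21, which holds all 55450 identifiers. Each share has its exact 95% interval (Clopper-Pearson); where it is 0, the limit is that of 3 cells. Genes were compared between groups by the difference in mean log2(CPM + 1), among genes positive in 10% or more of either group, without the genes of the rule; 1 or more was called. Gene counts ran from 58907 to 10057116 in the Opn4/Eomes cells. No doublet caller was run, since cells were picked singly; markers of other cells were counted instead. The highest correlation of log2 values between 2 of these libraries was 0.864, so none was taken for a repeat.

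The rule for the cells, the 28 gene lists (261 genes) and the tests were chosen with earlier results of these data known. The text may name every listed gene and, per comparison, the 20 genes of largest higher and 10 of largest lower difference, positive in 20% or more of the higher group's cells and in the same direction in each run with 5 or more cells of both groups; clone-named genes may be left out. Runs were read from tags in the library names. Counts over all genes are mostly given as a percent of the genes compared. Alternatives were the call at 1 or 100 CPM, thinning to 1000000 counts (7 cells left out), cells with at least 1000 or 5000 positive genes, totals without ribosomal loci, leaving out cells with 3 or more bipolar or amacrine markers, each run left out, a pseudocount of 10, no gene filter and the median difference subtracted. Some listed genes are not reported here. The comparison was also run on simulated data, in which each gene's values were shuffled between cells. Shuffling removes differences in depth and run, so the simulation does not bear on them. The tools were pandas 2.3.3, scipy 1.17.1, matplotlib 3.10.9 and numpy 2.4.6 under Python 3.11.15.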

Additional observations from a re-analysis of the deposited data

Results flagged for a closer look

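Spike-in RNA, which lies outside the gene counts, reached 27.06% of all counts in 1 Opn4/Eomes cell (cell 22, run B, 58907 gene counts). The median of the Opn4/Eomes cells was 0.439%. A count of 0 allows 0.00371% in cell 22, a share that every Opn4/Eomes cell exceeded, the lowest being at 0.0217%. Spike-in RNA took over 5% in 3 of the 75 Opn4/Eomes cells and in 28 other cells.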

How the results depend on the processing

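Of the recomputed values 92 kept within the exact interval of the share or within 1.5 times the count of genes, among them all 13 for the cells with both Opn4 and Eomes, and 37 did not. Not all of the 92 could move. Every Opn4/Eomes cell had at least 1364 positive genes, so the limit of 1000 left the values within these cells as they were. The share of cells in the rule was 23.1% at 1 CPM and 5.30% at 100 CPM; that with Spp1 was 71.6% at 1 CPM and 44.2% without run A; that with Adcyap1 was 4% at 100 CPM (1 of 25 cells) and that with Tbx20 3.77% without run B. Genes higher in the Opn4/Eomes cells made up 3.42% of those compared without ribosomal loci, 4.36% and 6.57% without cells rich in bipolar or amacrine markers, 6.27% without run A, 5.67% without run B, 0.0851% with a pseudocount of 10 and 0.621% with the median subtracted. Genes lower there made up 5.79% at 100 CPM, 0.0594% in cells with at least 1000 positive genes, 0.200% and 0.558% without marker-rich cells, 0.0684%, 0.0592% and 0.0759% without runs A, B and D, 0.00851% with a pseudocount of 10, 0.187% with the median subtracted and 0.227% in cells with at least 5000 positive genes. In the Spp1 split, higher genes made up 28.9% and 34.8% without marker-rich cells, 2.81% with a pseudocount of 10, 7.78% with the median subtracted and 11.03% in cells with at least 5000 positive genes. Lower genes there made up 0.827% and 12.8% at 1 and 100 CPM, 2.91% and 5.27% without marker-rich cells, 3.31% and 4.28% without runs A and B, 0.136% with a pseudocount of 10, 4.86% with the median subtracted and 5.46% in cells with at least 5000 positive genes. Where the set of genes compared changed, some percents moved over 1.5 times though the count did not: higher genes in the Opn4/Eomes cells were 4.64% at 100 CPM and 1.1% with no gene filter, lower ones 0.0219% at 1 CPM and 0.0178% with no gene filter, and higher genes in the Spp1 split 10.8% at 1 CPM and 38.1% at 100 CPM. The cause of these moves was not tested. The median subtraction and the limit of 5000 positive genes were chosen after seeing the data. No paired analysis was possible because every cell is a separate sample of 1 group. With no animals named, differences between mice cannot be told apart from differences between cells, and a gene below 10 CPM may still be expressed.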

Other observations

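Activity-induced immediate early genes showed 0 of 9 called between the Opn4/Eomes cells and other cells, where 2.11% of all genes were higher and 0.034% lower. Their median difference in mean log2(CPM + 1) was -0.08, against 0.25 over all genes. Arc, a gene of synaptic activity, was positive in 22.7% against 12.8%. Among the Opn4/Eomes cells the Spp1-positive cells had 6 of 9 higher by 1 or more than the Spp1-negative cells (Fos, Fosb, Junb, Jun, Egr1 and Nr4a1), with a median of 1.07 against 0.37 over all genes, of which 17.6% were higher. The list median is the pooled difference of Fos, 1.07, and Fos had the opposite sign in both runs with enough cells. Egr1, Fosb, Jun and Nr4a1 kept their sign in both, and Junb in 1.

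Clock genes showed 0 of 10 called against the other cells, beside the same shares of all genes, and a median difference of 0.06, also below the 0.25 over all genes. Nr1d1, a repressor of the clock loop, was positive in 86.7% against 83.4%, and Per3 in 88% against 81.1%. Among peptide genes Npy was positive in 22.7% against 10.6%, in 11 of 34 cells with Opn4 alone and in 1 of 18 with both Opn4 and Eomes. Somatostatin receptor 2 (Sstr2) was positive in 5 of 75 cells (6.67%) against 1.26% of the others. S100b, listed as an astrocyte marker, was positive in 49.3% against 22.4% and in 62.2% of the Spp1-positive Opn4/Eomes cells, while Gfap was at 16% against 15.1% and Pax2 at 2.67% against 2.02%.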
